A study of Mus musculus with 10 samples.

Results

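The constitutive proteasome subunit genes were examined in leukemic mouse spleens. They were taken as all genes whose symbol is Psma, Psmb, Psmc or Psmd followed by a number, leaving out Psmb8, Psmb9, Psmb10 and Psmb11, whose products replace constitutive catalytic subunits in specialised particles. The rule gave 35 of the 20813 genes in the table, 15 of the core (8 Psma, 7 Psmb) and 20 of the regulatory particle (6 Psmc, 14 Psmd). All 35 had a mean of at least 10 over the samples and were among the 15276 genes tested. Of the 14 Psmd genes, Psmd5, Psmd9 and Psmd10 encode chaperones that help assemble the base of the regulatory particle and are not part of the finished proteasome.

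RNA was sequenced from the spleens of C57BL/6 mice bearing transplanted T-ALL (acute lymphoblastic leukemia of T cells, a cancer of immature lymphocytes). Leukemias with a conditional Sirt1 allele, which both groups carried, were injected into a vein of sub-lethally irradiated recipients. The 5 samples labelled Sirt1-deleted (replicates 7, 8, 10, 11 and 12) came from recipients injected in the abdomen with 3 mg of tamoxifen per mouse in corn oil, and the 5 controls (replicates 2 to 6) from recipients given corn oil alone. The comparison asks what changes when Sirt1, an NAD-dependent protein deacetylase, is deleted, but the genotype label and tamoxifen coincide in every sample and cannot be told apart. The Cre driver, the deleted exons and the age of the mice are not given in the sources used here. The spleens were dispersed and their red cells lysed, so the total RNA came from leukemia cells together with the host cells that remained. In such bulk samples, fewer cells of a type and less RNA per cell cannot be told apart. The labels do not say that each sample was a separate animal, so p-values measure the spread between these samples.

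The proteasome is the protease of the cytosol and nucleus that degrades proteins tagged with ubiquitin. Its core is a barrel of alpha rings, which form the gate, around beta rings, which hold the proteolytic sites. The regulatory particle caps the barrel: its base carries a ring of ATPases that unfold the substrate and subunits that bind ubiquitin, and its lid removes the ubiquitin chain. Its beta-ring sites are the target of proteasome inhibitors used in blood cancers.

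Values are counts per gene normalized between samples, as deposited, and they summed to 33.7 to 34.5 M per sample (M, mega). Differences are means of log2(value + 1) in the labelled Sirt1-deleted samples minus controls, and a gene was called higher or lower at a limma adjusted p under 0.05. Errors are SD over 5 samples. Sirt1 itself measured 1810.5 ± 62.5 in controls and 1873 ± 146 in the labelled Sirt1-deleted samples, and the groups overlapped (log2 difference 0.05, exact two-sided permutation p = 0.413), so the group is named by its label. Which part of the gene is removed is not given, so a gene-level value does not check the deletion. T lineage markers summed to 210616 to 223822 in controls and 216389 to 239896 in the labelled Sirt1-deleted samples, with 2 of 12 markers higher and 2 lower. Neutrophil markers summed to 9135 to 12609.5 in controls and 28861 to 99812 in the labelled Sirt1-deleted samples, with 13 of 14 higher. Macrophage and monocyte markers summed to 3161 to 3635 and 6613 to 11875 (10 of 14 higher), and interferon-response genes to 14451 to 18141 and 23719 to 35929 (12 of 13 higher). Sums of the B cell markers (17938 to 21204 and 19253 to 26746) and of the erythroid markers (31343 to 120933 and 29419 to 145959) overlapped between the groups, and no listed marker was at 0. The B cell sum was mostly Ighm (17407 to 25729 over all samples) and says little about the other B cell markers. Of single markers, 0 of 8 for B cells and 0 of 9 for erythroid cells were called. The part of these other cells in the proteasome results was not tested. For the proteasome genes, replicates 10 and 11 stood apart from the other labelled Sirt1-deleted samples, and the results that rest on them are given with and without them.

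Differences in constitutive proteasome transcripts were small and did not share a direction. Psma3 and Psmd2, at 1.30-fold each, and Psmd9, at 1.25-fold, showed the largest rises. Differences were positive for 20 genes and negative for 15. The only called fall was that of Psma8, a form of the alpha ring best known from testis, to 0.767 of the control mean. Of the 35 genes, 10 were higher, 1 was lower and 24 were not called. The share called in either direction was near the background: limma called 36.1% of all tested genes (16.8% higher and 19.4% lower). By direction the shares differed: 90.9% of the called members were higher, against 46.4% of all called genes. That share of the members was 36.8% without replicates 10 and 11 and 41.7% after a length and GC correction. The core had 5 genes higher, 1 lower and 9 not called, with a median log2 difference of 0.11. The regulatory genes had 5 higher, 0 lower and 15 not called, with a median of 0.01. At an unadjusted limma p under 0.05, 7 of them had a positive difference and 3 a negative one. Without Psmd5, Psmd9 and Psmd10, the 17 regulatory genes had 4 higher, 0 lower and 13 not called, with a median of -0.0068. The exact rank-sum test called 0 regulatory genes lower. After adjustment it called only genes whose groups did not overlap, so it repeats the count without overlap given below. Over all tested genes the median was -0.00014. For 8 members every labelled Sirt1-deleted sample was above every control and for 1 every such sample was below, where 11.1% and 12.9% of all tested genes did the same.

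**Figure D1:**
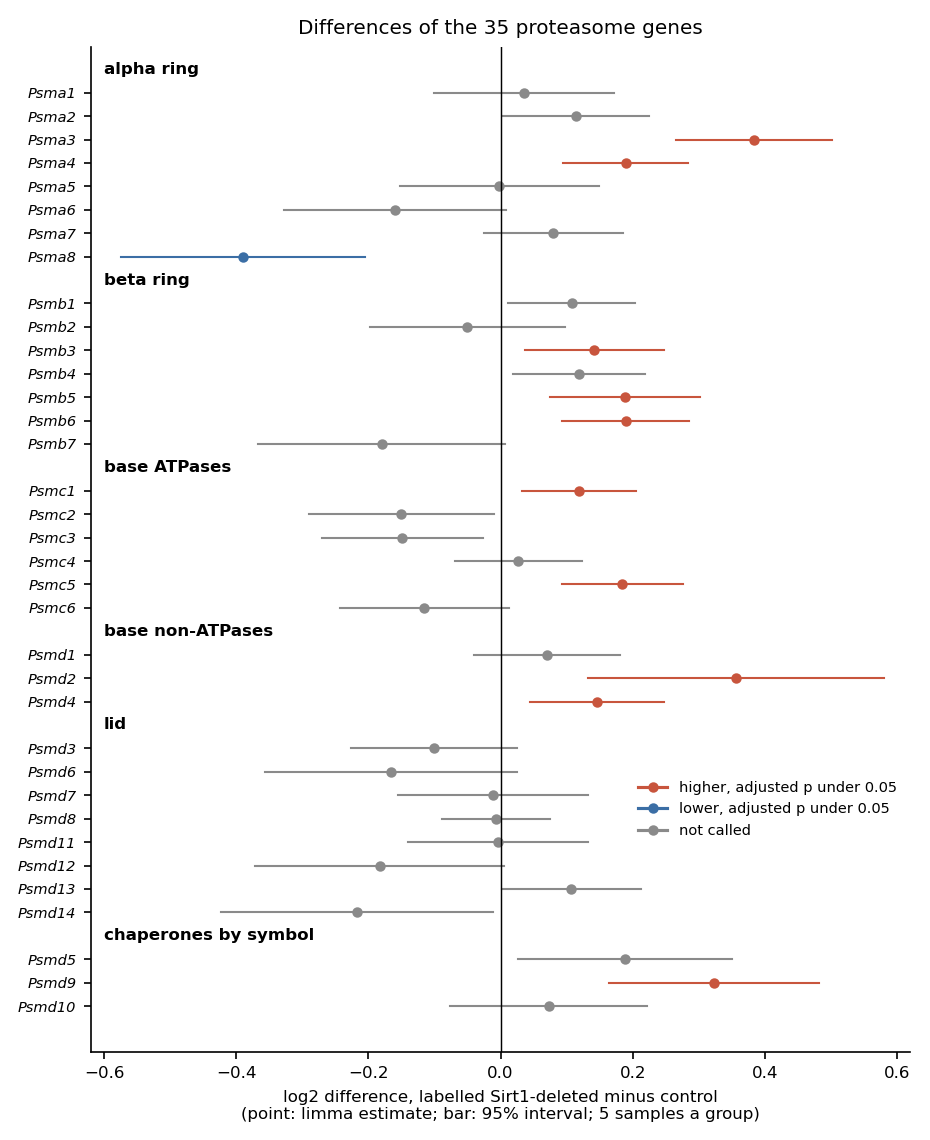
Log2 difference of each of the 35 genes (horizontal axis, mean log2(value + 1) of 5 labelled Sirt1-deleted samples minus that of 5 controls) with its 95% interval from limma, grouped by place in the particle. Colour shows the call: the 10 higher genes lie in every class except the lid (here without Sem1), and the only lower gene is Psma8. With the deposited scaling most lid genes sit left of 0.

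Alpha-ring genes were led by Psma3, with Psma4 also higher and Psma8 lower (2 of 8 higher, 1 lower). Psma3 (ENSMUSG00000060073.9, mm10 chromosome 12, 70974621 to 70996347) measured 4901, 5095, 5774, 5154 and 5648 in control replicates 2 to 6 and 7107, 6474, 6815, 6964 and 7263 in labelled Sirt1-deleted replicates 7, 8, 10, 11 and 12. All labelled Sirt1-deleted samples lay above all controls, and the log2 difference was the largest of the 35 (log2 difference 0.38, SE 0.05, 95% interval 0.27 to 0.50, limma adjusted p = 0.000621). Psma4 (chromosome 9, 54950790 to 54958030) measured 6533, 6822, 6925, 7206 and 7163 in controls and 7608, 7662, 7848, 8268 and 8122 in the labelled Sirt1-deleted samples, in the same orders. The groups again did not overlap, with a smaller difference (log2 difference 0.19, SE 0.04, 95% interval 0.09 to 0.28, limma adjusted p = 0.00611).

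Psma8 (chromosome 18, 14706151 to 14762301), the least abundant ring gene per length, measured 813, 829.6, 817, 825 and 909 in controls. In the labelled Sirt1-deleted samples it measured 615, 594, 793, 633 and 582, all below the controls although replicate 10 came close (log2 difference -0.39, SE 0.09, 95% interval -0.57 to -0.21, limma adjusted p = 0.00472). The remaining alpha genes were not called: Psma1 measured 6366 ± 184 in controls and 6549 ± 656 in the labelled Sirt1-deleted samples. In the same order, Psma2 measured 7369.7 ± 449 and 7969 ± 315, Psma5 4699.6 ± 190.0 and 4712 ± 517, Psma6 7515 ± 161 and 6776 ± 913 and Psma7 7503 ± 258 and 7935 ± 453. Their log2 differences ran from -0.16 in Psma6 to 0.11 in Psma2. Psma2 shares its strand with the overlapping gene AW209491, so its value is uncertain.

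Among the beta-ring genes, which hold the catalytic sites, Psmb5 and Psmb6 rose and Psmb7 did not (3 of 7 higher with Psmb3). Psmb5 (ENSMUSG00000022193.7, chromosome 14, 54614119 to 54618022, minus strand) encodes the chymotrypsin-like site, the main target of proteasome inhibitors. It measured 4423, 4779, 5072, 4937 and 5239 in controls and 5470.5, 5729, 5588, 5796 and 5249 in the labelled Sirt1-deleted samples. The groups did not overlap, although labelled Sirt1-deleted replicate 12 lay just above control replicate 6 (log2 difference 0.19, SE 0.05, 95% interval 0.08 to 0.30, limma adjusted p = 0.0145). Psmb6 (chromosome 11, 70525367 to 70527858) encodes the caspase-like site. It measured 4701, 4675, 5154, 4784 and 4914 in controls and 5422, 5628, 5491, 5786 and 5289 in the labelled Sirt1-deleted samples, without overlap (log2 difference 0.19, SE 0.04, 95% interval 0.09 to 0.28, limma adjusted p = 0.00646).

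Psmb7 (chromosome 2, 38588036 to 38644087, minus strand) encodes the trypsin-like site. It measured 6223, 6033, 6321, 6464 and 6315 in controls and 4956, 5517, 6349, 6515 and 4591 in the labelled Sirt1-deleted samples. Replicates 7, 8 and 12 were below every control while 10 was within the control range and 11 was above it, and the gene was not called (log2 difference -0.18, SE 0.09, 95% interval -0.37 to 0.01, limma adjusted p = 0.120). Of the structural beta genes, Psmb3 rose from 5123 ± 207 in controls to 5655 ± 309 (log2 difference 0.14, limma adjusted p = 0.0375), a call lost in 12 of 22 alternatives. Psmb4 measured 7580.0 ± 266 in controls and 8236 ± 422 in the labelled Sirt1-deleted samples, with no overlap, but was not called (log2 difference 0.12, limma adjusted p = 0.0601). Psmb1 (6741 ± 338 and 7257 ± 162) and Psmb2 (3751 ± 124 and 3639 ± 398) were not called. The pseudogene copies Psmb6-ps2 and Psmb7-ps2, which could share reads with their parents, measured 0 to 4.28 and 4.83 to 16.1 over all samples.

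**Figure D2:**
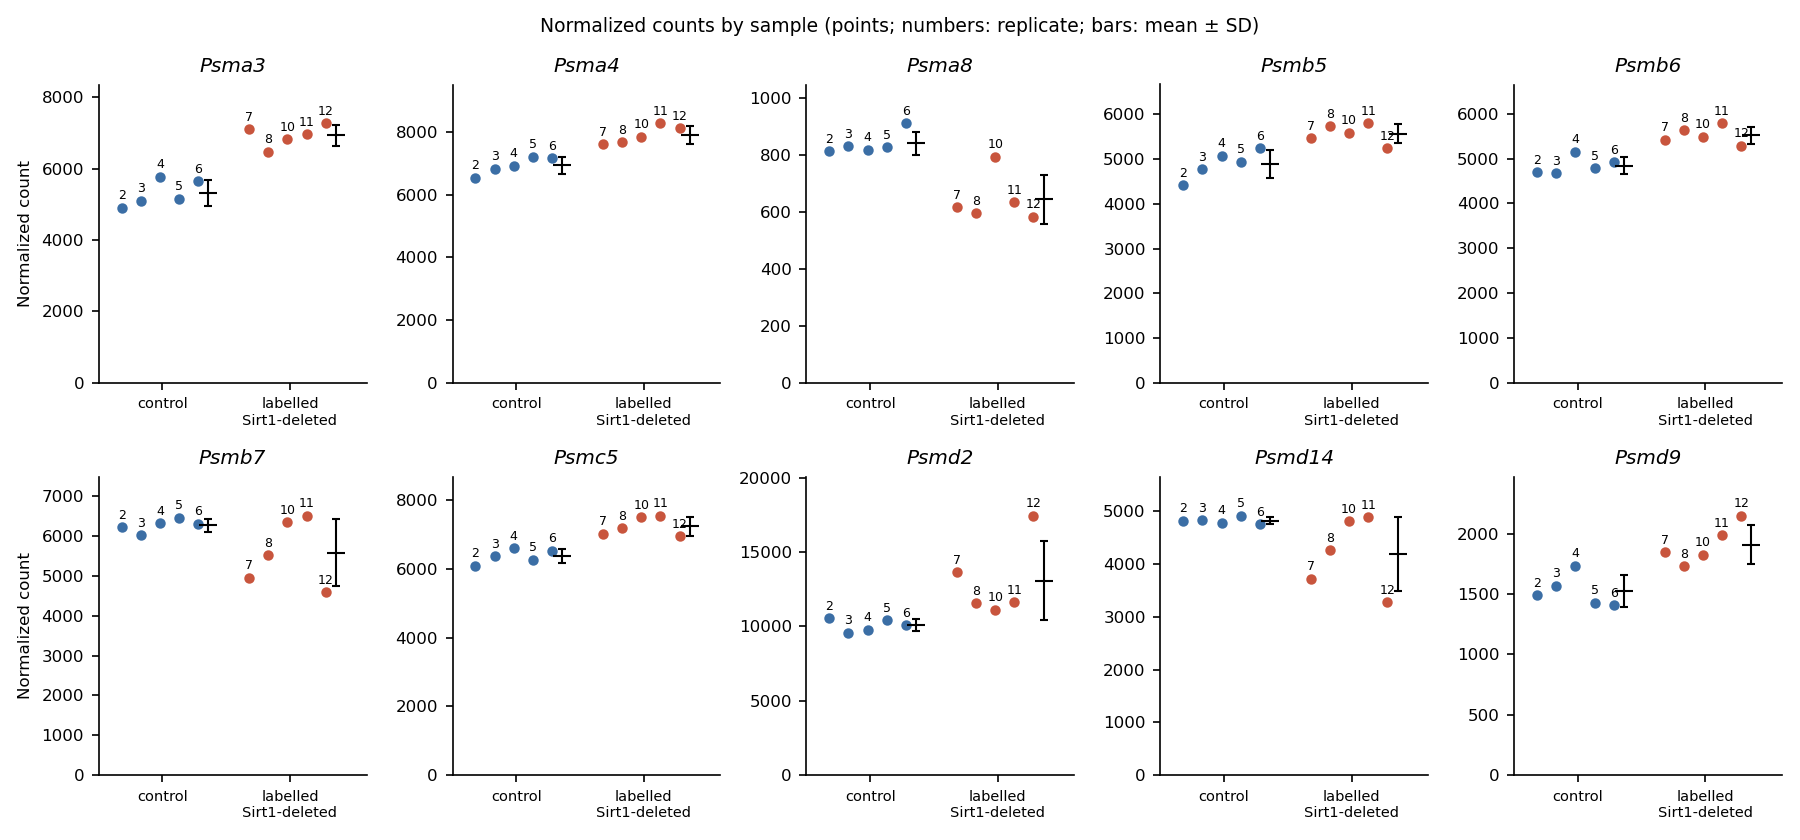
Normalized count of 10 named genes in each sample, controls beside labelled Sirt1-deleted samples, each point 1 sample and each bar the group mean ± SD (n = 5). Psma3, Psma4, Psmb5, Psmb6, Psmc5 and Psmd2 lie wholly above controls and Psma8 wholly below, while Psmb7 and Psmd14 spread widely in the labelled Sirt1-deleted samples.

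In the base, Psmd2 and Psmc5 showed the clearest rises. Psmd2 (chromosome 16, 20651652 to 20663414), a large scaffold subunit that docks ubiquitin carriers, measured 10567, 9574, 9796, 10416 and 10088 in controls and 13678, 11565, 11137, 11628 and 17463 in the labelled Sirt1-deleted samples. No value overlapped, but replicate 12 stood far above the rest (log2 difference 0.36, SE 0.10, 95% interval 0.13 to 0.58, limma adjusted p = 0.0183). Without replicate 12 the Psmd2 difference was 0.25 and the gene was still called. Psmc5 (chromosome 11, 106256154 to 106263120), 1 of the 6 ATPases, measured 6098, 6382, 6606, 6274 and 6531 in controls and 7027, 7199, 7508, 7554 and 6952 in the labelled Sirt1-deleted samples, without overlap (log2 difference 0.18, SE 0.04, 95% interval 0.09 to 0.28, limma adjusted p = 0.00611).

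The other ATPase genes differed in both directions. Psmc1 rose from 9243 ± 222 in controls to 10039.9 ± 345 (log2 difference 0.12, limma adjusted p = 0.0340), a call lost in 11 of 22 alternatives, 4 of which left out a single control. Psmc2 (5228 ± 176 and 4728 ± 478), Psmc3 (8335 ± 206 and 7539 ± 628) and Psmc6 (5929 ± 217 and 5486 ± 466) had negative differences, Psmc4 (5877 ± 205 and 5989.5 ± 261) a positive one of 0.03, and none of these 4 was called. The ubiquitin receptor gene Psmd4 rose from 4739.9 ± 184 in controls to 5246 ± 250.1 (log2 difference 0.15, limma adjusted p = 0.0284), a call lost in 9 of 22 alternatives, and the scaffold gene Psmd1 (7881 ± 287 and 8288 ± 542) was not called. Psmd1 shares its strand with an overlapping annotated gene, Gm21972.

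None of the 8 lid genes was called by limma, and with the deposited scaling 7 had negative differences (median -0.06), of which Psmd7, Psmd8 and Psmd11 were positive after upper-quartile rescaling. Sem1, a lid gene outside the symbol rule, was called higher (log2 difference 0.34, limma adjusted p = 0.00286) and is not counted among the lid genes here. At an unadjusted limma p under 0.05, 1 lid gene was higher (Psmd13) and 1 lower (Psmd14). The groups overlapped for every lid gene, so the exact rank-sum test, which called only genes without overlap, could call 0 of them. Psmd14 (ENSMUSG00000026914.15, chromosome 2, 61711694 to 61800376) encodes the metalloprotease that cuts the ubiquitin chain from the substrate. It measured 4819, 4832, 4786, 4917 and 4751 in controls, a tight range, and 3724, 4261, 4817, 4894 and 3275 in the labelled Sirt1-deleted samples. Replicates 7, 8 and 12 were below every control and 10 and 11 lay inside the control range (log2 difference -0.22, SE 0.10, 95% interval -0.42 to -0.01, limma adjusted p = 0.0913). Control and labelled Sirt1-deleted means of the other lid genes were 8549.8 ± 188 and 7998 ± 716 for Psmd3, 4527 ± 151 and 4071 ± 615 for Psmd6 and 4844 ± 76.9 and 4828 ± 529 for Psmd7. They were 6342 ± 134 and 6312 ± 139.7 for Psmd8 and 4104 ± 165 and 4104 ± 385 for Psmd11. Psmd12 measured 4722 ± 197 and 4193 ± 629, and Psmd13 6179 ± 277 and 6655 ± 340.3. Psmd13 lies opposite Sirt3; the libraries were strand-specific, but how strand was used in counting is not given in the sources used here.

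Of the 3 base chaperones, Psmd9 (chromosome 5, 123169413 to 123250131) rose. It measured 1492, 1569, 1735, 1428 and 1406 in controls and 1848, 1733, 1826, 1988 and 2149 in the labelled Sirt1-deleted samples, where replicate 8 lay just under control replicate 4 (log2 difference 0.32, SE 0.07, 95% interval 0.16 to 0.48, limma adjusted p = 0.00580). Psmd5 (1883 ± 107 and 2152 ± 222) and Psmd10 (547 ± 29.3 and 576 ± 33.4) were not called.

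Where the members lay relative to the controls depended on the labelled Sirt1-deleted sample. In replicates 10 and 11, 23 and 27 of the 35 genes lay above the control range and 2 and 1 below it. In replicates 7, 8 and 12, by contrast, 15, 12 and 14 lay above and 15, 13 and 16 below. As shares, 65.7% and 77.1% of the members lay above in replicates 10 and 11, against 26.8% and 28.5% of all tested genes. In replicates 7, 8 and 12 the members' shares, 34.3% to 42.9% above and 37.1% to 45.7% below, were nearer to those of all tested genes, 31.7% to 34.5% above and 33.1% to 37.6% below. Replicates 10 and 11 were the 2 highest of the 5 for 22 of the 35 genes (62.9%), against 23.7% of all tested genes. The pair was picked from earlier results of these data, so its excess among the members is partly set by that choice and these shares are a description. Members held 0.622% and 0.636% of the total in replicates 10 and 11, 0.581% to 0.589% in replicates 7, 8 and 12, and 0.570% to 0.586% in controls. The median of the lid against the control mean was -0.15, -0.10 and -0.22 in replicates 7, 8 and 12, and 0.06 and 0.05 in 10 and 11. Neutrophil marker sums were 28861 and 39557 in replicates 10 and 11 and 59629, 99812 and 44318 in 7, 8 and 12. T lineage marker sums also split this way, at 216389 and 218051 in replicates 10 and 11 and 239771, 235803 and 239896 in 7, 8 and 12. That split of the sums rests on Thy1, a surface protein of T cells. Thy1 measured 60175 and 64270 in replicates 10 and 11 and 90569, 82730 and 100216 in the others. The other listed T lineage markers went both ways. Cd4, Lck, Bcl11b and Cd7 were also lower in replicates 10 and 11 than in each of the others, while Cd3e, Cd3g and Cd8a were higher. Cd3d, Cd8b1 and Tcf7 did not separate these samples. Ptcra, the pre-T-cell receptor alpha chain of immature T cells, measured 1171 and 1157 in replicates 10 and 11, above the controls (488 to 668), and 278, 284 and 351 in the others, below them. Thy1 and Ptcra were chosen after their values were seen, and the part of these cells in the member pattern was not tested.

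**Figure D3:**
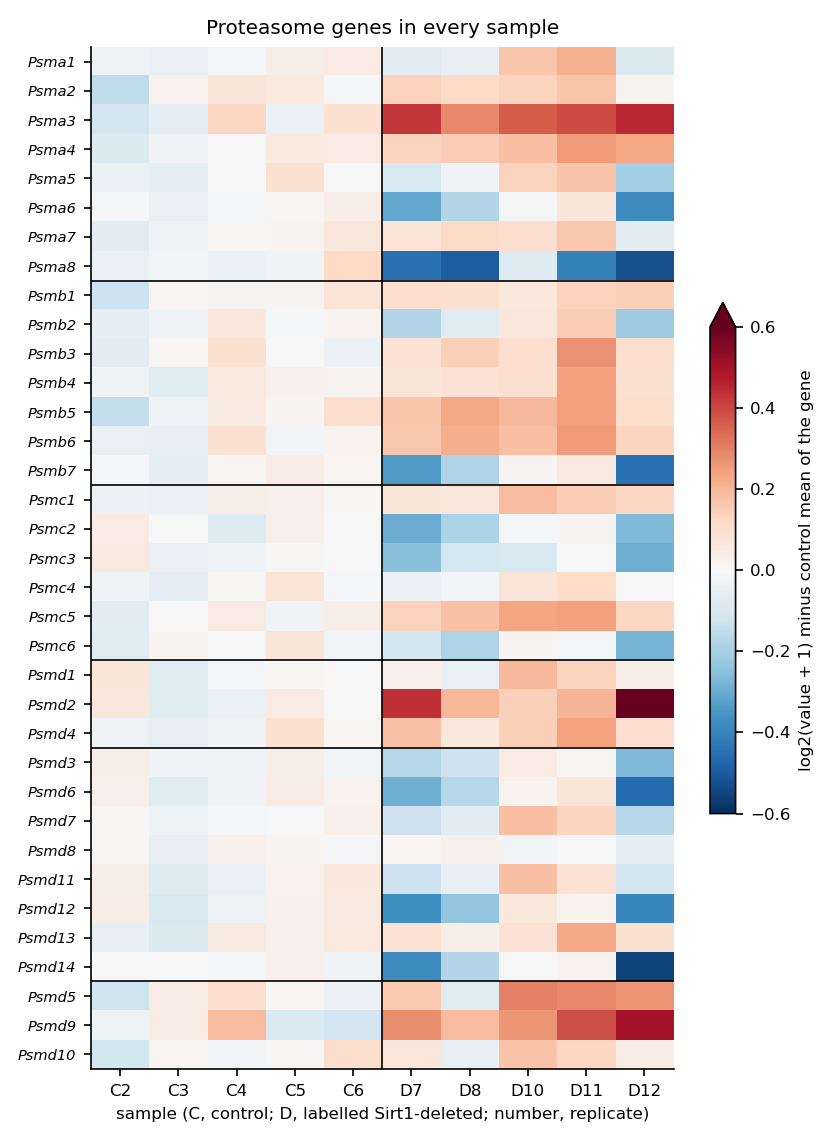
Heat map of the 35 genes (rows, by class) in each sample (columns, controls 2 to 6 then labelled Sirt1-deleted 7 to 12); colour is log2(value + 1) minus the control mean of the gene, on a scale that stops short of Psmd2 in replicate 12. Labelled Sirt1-deleted replicates 10 and 11 are above the control mean for most genes, and 7, 8 and 12 are below it for most lid genes.

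Without replicates 10 and 11 limma called 7 members higher and 12 lower, where all tested genes had 21.0% higher and 24.5% lower. Both samples were picked from earlier results of these data and are the highest for most members, so leaving them out lowers the group mean of those members by construction, and these calls are a description. The 7 higher genes and Psma8 had been called with all samples, 11 lower calls were added, and Psmb3, Psmc1 and Psmd4 lost their calls. Of the added genes 5 were in the lid: Psmd14 (log2 difference -0.37), Psmd12 (-0.33), Psmd6 (-0.31), Psmd3 (-0.19) and Psmd7 (-0.12). The others were Psmb7 (-0.32), Psma6 (-0.29), Psmc2 (-0.25), Psmc3 (-0.22), Psmc6 (-0.19) and Psmb2 (-0.16). Leaving out replicate 10 alone added 5 lower calls, and leaving out replicate 11 alone added 7.

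Scaling and transcript properties also moved the calls. Upper-quartile rescaling, which shifted the median of all tested genes to 0.06, gave 17 members higher and 1 lower, against 20.7% higher and 14.7% lower over all genes. It raised the share of higher genes among all called genes from 46.4% to 58.5%. The median transcript of the members called higher was 1550 bases (longest annotated transcript), against 1919 for the uncalled members and 3195 for all tested genes. Their median GC contents were 50.9%, 47.5% and 49.4%, in that order. Among the members called higher, the principal transcripts of Psma3, Psmd2 and Psmd9 were 2846, 2961 and 2597 bases long. Principal and longest transcripts are different choices, so these lengths are not set against the medians. Correcting each sample for the length and GC content of transcripts, a choice made after the data were seen, left 5 members higher and 7 lower (all genes: 16.2% higher, 17.0% lower). Psma3 (0.33), Psmd2 (0.38), Psmd9 (0.33) and Psmc5 (0.11, limma adjusted p = 0.0459) stayed higher, and Psma8 (-0.46) stayed lower. Psmb5 (0.07, limma adjusted p = 0.240), Psmb6 (0.08, limma adjusted p = 0.164) and Psma4 (0.09, limma adjusted p = 0.0848) lost their calls, as did Psmb3 (0.07), Psmc1 (0.05) and Psmd4 (0.12). Psmd5 was added as higher, and Psma6, Psmc3, Psmc6, Psmd6, Psmd12 and Psmd14 were added as lower.

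Each constitutive catalytic subunit has an interferon-inducible counterpart that takes its place in the immunoproteasome, and the transcript ratios of the 3 pairs did not move alike. These are ratios of counts not divided by transcript length (Psmb8 1628 bases, Psmb5 899). Only their differences between groups are read, and their levels do not compare the abundance of 2 genes. The Psmb8 to Psmb5 ratio was 2.15 to 2.44 in controls and fell to between 1.79 and 2.07 in the labelled Sirt1-deleted samples, without overlap. On the log2 scale it was 1.20 ± 0.0646 in controls and 0.95 ± 0.0885 in the labelled Sirt1-deleted samples, a difference of -0.25 (exact two-sided permutation p = 0.00794, the smallest possible; adjusted over the 3 ratios, p = 0.0119). The Psmb10 to Psmb7 ratio was 0.498 to 0.636 in controls and rose to between 0.641 and 1.32, again without overlap (log2 -0.80 ± 0.141 against -0.09 ± 0.424, difference 0.71, exact permutation p = 0.00794, adjusted p = 0.0119). It was highest in replicates 12, 7 and 8 and lowest in 10, and without replicates 10 and 11 the Psmb10/Psmb7 difference was 0.99. The Psmb9 to Psmb6 ratio was 0.482 to 0.653 in controls and rose to between 0.646 and 0.866, with a slight overlap (log2 -0.73 ± 0.184 against -0.47 ± 0.166, difference 0.26, exact permutation p = 0.0159, adjusted p = 0.0159). This call rests on control replicate 2, the lowest: without it the Psmb9/Psmb6 difference was 0.18 (adjusted exact permutation p = 0.0635).

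**Figure D4:**
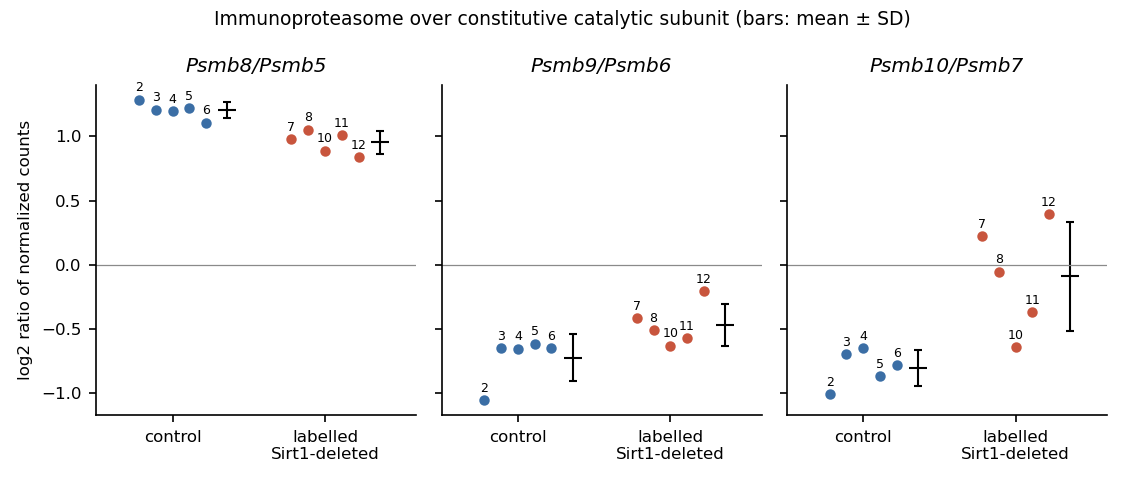
Log2 ratio of each immunoproteasome catalytic gene to its constitutive counterpart in each sample, controls beside labelled Sirt1-deleted samples, with group means ± SD (n = 5). Psmb8/Psmb5 is lower and Psmb10/Psmb7 higher in all labelled Sirt1-deleted samples, and Psmb9/Psmb6 overlaps.

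The immunoproteasome genes themselves differed in the same comparison. Psmb8 was not called (11257 ± 340.1 and 10813 ± 1020.3; log2 difference -0.06, limma adjusted p = 0.448), while Psmb9 rose from 2953 ± 399 in controls to 4005 ± 375 (log2 difference 0.45, limma adjusted p = 0.00451) and Psmb10 rose from 3609 ± 336 in controls to 5249 ± 767 (log2 difference 0.53, limma adjusted p = 0.00225). Of the 4 immunoproteasome and thymoproteasome genes 2 were higher. Among 6 genes of activators and the inhibitor, 3 were higher and 1 lower. The interferon-inducible activator genes Psme1 (from 7292 ± 473 in controls to 8789.8 ± 780.2; log2 difference 0.27, limma adjusted p = 0.00931) and Psme2 (from 4897 ± 228 in controls to 6604 ± 518; log2 difference 0.43, limma adjusted p = 0.000585) rose. The largest change was in Psme2b, a copy of Psme2 (from 35.7 ± 8.08 in controls to 95.5 ± 37.1; log2 difference 1.34, limma adjusted p = 0.00400), whose reads may be shared with Psme2. Of 2 subunits with other symbols, the lid gene Sem1 rose (from 4279 ± 279 in controls to 5424 ± 494; log2 difference 0.34, limma adjusted p = 0.00286).

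Other genes of proteasome assembly and control were called in both directions, where limma called 36.1% of all tested genes. Of 5 core assembly chaperones 2 were higher, with Psmg3 the larger (log2 difference 0.31, limma adjusted p = 0.0101), and Pomp, the maturation factor of the core, was not called (5419.9 ± 205 and 5801 ± 439.7; log2 difference 0.10, limma adjusted p = 0.187). Of 11 associated enzymes and adaptors 1 was higher and 4 lower, led by the ubiquitin ligase gene Ube3c (from 1958 ± 177 in controls to 1461 ± 188; log2 difference -0.43, limma adjusted p = 0.00400). Of 10 genes of transcription control 3 were lower and the other 7 were not called. Nfya, a subunit of the CCAAT-binding factor, fell most (log2 difference -0.31, limma adjusted p = 0.00496). Ddi2 (log2 difference -0.27, limma adjusted p = 0.0276) and Ngly1 (log2 difference -0.24, limma adjusted p = 0.0228) were also lower. Nfe2l1, the factor that induces proteasome genes when the proteasome is inhibited, was not called (2234 ± 65.9 and 2147 ± 84.2; log2 difference -0.06, limma adjusted p = 0.352), nor was its relative Nfe2l2 (log2 difference -0.06, limma adjusted p = 0.384). Of 9 ubiquitin and Vcp-complex genes 1 was higher, Rps27a (log2 difference 0.19, limma adjusted p = 0.0313), which encodes ubiquitin fused to a ribosomal protein. The call of Rps27a was lost after quantile normalization (0.09, limma adjusted p = 0.149).

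Levels were compared between genes per kilobase of annotated transcript. In controls, the 31 particle genes without Psma8 ran from 1441 normalized counts per kb in Psmd11 to 8209 in Psma7, a 5.70-fold range with a median of 3980. The beta ring ran from 3835 to 6688 (1.74-fold), with Psmb6 at 6072, Psmb5 at 5439.5 and Psmb7 at 5406. The lid lay lower, at 1441 to 4118. Psma8, at 496, and the chaperones, at 383 to 588, lay below every other member. These levels depend on which transcript is taken as the length.

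**Figure D5:**
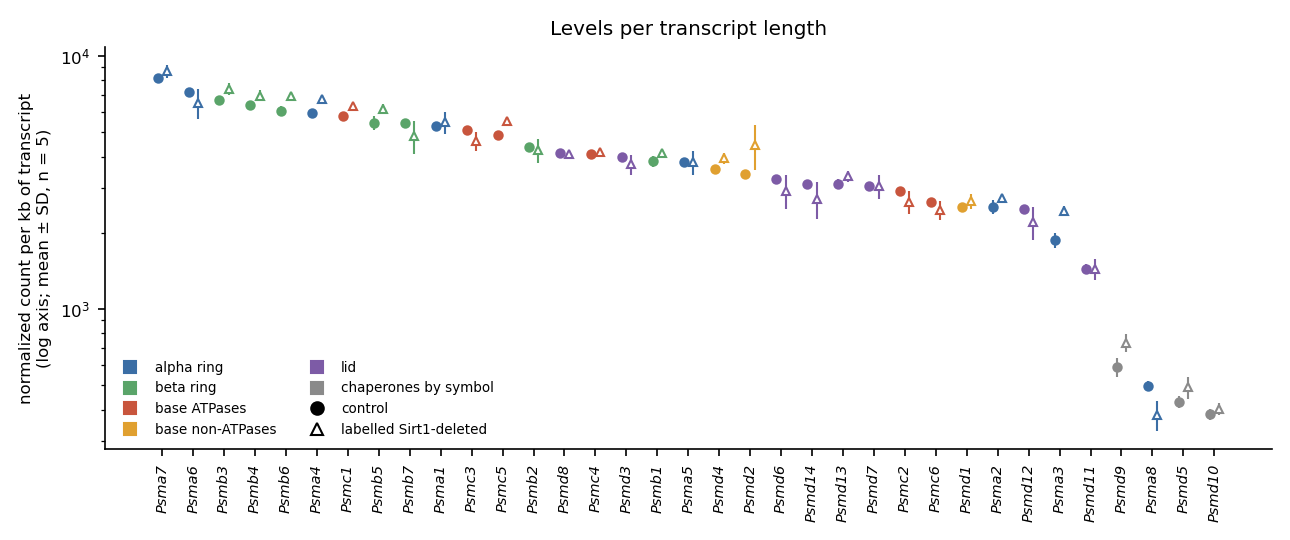
Normalized count per kilobase of transcript (log axis) for each of the 35 genes, mean ± SD over 5 samples, controls as filled circles and labelled Sirt1-deleted samples as open triangles. Psma8 and the chaperones Psmd5, Psmd9 and Psmd10 lie below the particle genes, and group differences are small beside the range between genes.

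Promoters of members were searched for motifs of factors linked to proteasome genes. RefSeq windows (GRCm38.p6, from 250 bases before the start to 50 after) matched 28 of the 35 genes, in 30 windows. The antioxidant response element core, TGACNNNGC, the kind of site bound by NFE2L1 and NFE2L2, lay in 5 of 30 windows (16.7%) and in 12.4% of all 32851 windows. These were Psmb5, Psmb6, Psmc6, Psmd9 and Psmd12. The CCAAT box lay in 36.7% of member windows and 37.4% of all. The site of nuclear respiratory factor 1, GCGC, any 2 bases and GCGC again, which reads the same on both strands, lay in 6 of 30 (20.0%) and 6.2% of all: Psma2, Psma3, Psma4, Psmc4, Psmc5 and Psmd14. All 3 motifs were searched on both strands, matches of different motifs overlapped in 0 member windows, and a match is a description of the sequence. Shown are the 250 bases before the RefSeq start of 2 catalytic genes that rose and hold the antioxidant core. The same is shown for Psma3, which rose most, and for Psmd14, which was not called, both with the nuclear respiratory factor 1 site. Capitals mark the motif matches, CCAAT (or ATTGG on the opposite strand) included. The windows are chr14:54617996-54618245 on the minus strand, chr11:70525107-70525356, chr12:70974373-70974622 and chr2:61711444-61711693 on the plus strand.
Psmb5: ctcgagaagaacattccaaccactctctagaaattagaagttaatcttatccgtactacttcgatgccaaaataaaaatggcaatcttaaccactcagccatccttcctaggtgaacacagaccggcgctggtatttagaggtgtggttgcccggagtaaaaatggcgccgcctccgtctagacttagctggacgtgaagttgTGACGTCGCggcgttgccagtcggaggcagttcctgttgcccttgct
Psmb6: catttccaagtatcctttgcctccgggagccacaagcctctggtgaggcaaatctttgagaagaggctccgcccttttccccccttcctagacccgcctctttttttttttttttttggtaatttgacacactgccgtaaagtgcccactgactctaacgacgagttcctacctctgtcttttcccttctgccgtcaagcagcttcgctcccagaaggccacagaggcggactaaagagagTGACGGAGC
Psma3: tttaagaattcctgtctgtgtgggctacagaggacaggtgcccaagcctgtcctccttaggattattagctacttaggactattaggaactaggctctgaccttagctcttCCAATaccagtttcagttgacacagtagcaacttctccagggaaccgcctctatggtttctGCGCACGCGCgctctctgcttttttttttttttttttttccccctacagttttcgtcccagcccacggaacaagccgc
Psmd14: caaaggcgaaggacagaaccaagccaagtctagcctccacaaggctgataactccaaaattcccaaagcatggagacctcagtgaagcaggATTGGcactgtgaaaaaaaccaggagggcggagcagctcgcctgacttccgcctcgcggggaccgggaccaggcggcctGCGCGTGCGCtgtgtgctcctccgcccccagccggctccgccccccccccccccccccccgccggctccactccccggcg
Counted from the RefSeq start, the antioxidant core begins at -47 in Psmb5 and -9 in Psmb6. For both genes the RefSeq start differs from the GENCODE gene bounds given above. The nuclear respiratory factor 1 site begins at -78 in Psma3 and -80 in Psmd14. Genes that rose and genes that were not called both held it: 3 of 10 higher and 3 of 18 uncalled members with a window. The antioxidant core lay in 3 of 10 higher and 2 of 18 uncalled members (Psmc6 and Psmd12), and the CCAAT box in 4 of 10 and 7 of 18. Whether any of these sites bears on the calls was not tested.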

How the data were processed

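Total RNA of 10 samples from leukemic mouse spleens was sequenced from strand-specific Illumina libraries, per the labels' protocols. The deposited table gives 1 signal per gene and sample, a count that the authors divided by DESeq normalization factors, as its name states. Its columns of no sample number 0. The submitters' processing notes on what the authors deposited name kallisto 0.44.0, DESeq and the mm10 build, without role or order. The annotation, the strand setting and any gene filter are not given in the sources used here. Because the values are not raw counts and depth is unknown, no count test was run.

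Values were analysed as log2(value + 1), with a pseudocount of 1, for genes with a mean of at least 10, which understates changes of low genes. Groups (from the genotype label, 5 against 5) were compared over all such genes with limma 3.58.1 in R 4.3.3, with an intensity trend and group as the only term. The Benjamini-Hochberg adjustment covered all tested genes, with a threshold of 0.05. The script was tested on simulated data. Single values and 3 ratios were tested by exact two-sided permutation (252 possible assignments, smallest p 0.00794). Ratios were compared within samples and adjusted over the 3.

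Values in every sample are given for Psmb5, Psmb6 and Psmb7, the 5 largest called rises, the called falls (up to 5), and the largest difference in any class without such a gene. Of related genes, 8 chosen genes and the called gene with the largest change in each list are given. The called genes Ddi2 and Ngly1 are given as well. The members, the lists, the naming rule and the alternatives were chosen with earlier results of these data known. Alternatives changed the pseudocount, filter, scaling, limma options, test, threshold and samples. Natural splines of transcript length and of GC content, removed from each sample, were added after seeing the data and covered 15266 of 15276 genes and all 35 members. Coordinates and transcript lengths came from GENCODE M21 (GRCm38, the mm10 build), matched by symbol. Levels per kb used the annotated principal transcript and the splines used the longest. Promoter windows came from RefSeq (GRCm38.p6).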

Additional observations from a re-analysis of the deposited data

Results flagged for a closer look

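In groups of 5, a sample was singled out when its gap to the nearest other sample exceeded 0.71 of the range of the group. This was met in 6 of 100 sets (50 genes in each group), where chance at about 1 in 20 gives 5, and no explanation was tested. Psma8 was highest in control replicate 6, at 909 against 813 to 829.6 in the other controls (ratio 0.827). It was also highest in labelled Sirt1-deleted replicate 10, at 793 against 582 to 633 (ratio 0.758). Labelled Sirt1-deleted replicate 11 was the highest of its group for Psmb4, at 8984 against 7957 to 8105 (ratio 0.855). The same sample was highest for Psmd13, at 7239 against 6344 to 6583 (ratio 0.733), and for Pomp, at 6559.7 against 5417 to 5704 (ratio 0.749). Psme2 was lowest in control replicate 2, at 4492 against 4967 to 5043 (ratio 0.862).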

How the results depend on the processing

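No paired analysis was possible because no number occurs in the titles of both groups. Psma3, Psma8, Psmc5 and Psmd2 kept their direction and their call under every alternative run at the 0.05 threshold, while the number of members called moved with scaling, samples and transcript properties; the cause was not tested. Core members higher numbered 9 after upper-quartile rescaling and after quantile normalization, 1 after the length and GC correction and 3 at an adjusted p under 0.01, and core members lower numbered 3 with sample weights, 2 after the length and GC correction and 4 without labelled Sirt1-deleted replicates 10 and 11. Regulatory members higher numbered 8 after either rescaling, 3 without a trend, with the rank-sum test and without replicates 10 and 11, and 2 at an adjusted p under 0.01. Regulatory members lower numbered 1 at a minimum mean of 50, 5 with sample weights and after the length and GC correction, and 8 without replicates 10 and 11. The core median was 0.17 after upper-quartile rescaling and 0.020 after the length and GC correction, and the regulatory median was -0.042 after that correction and -0.011 without replicates 10 and 11. Over the 10 fits that each left out 1 sample, there were 3 to 6 regulatory members higher (3 without control replicate 2, control replicate 3 or labelled Sirt1-deleted replicate 11), 0 to 5 lower and 1 to 3 core members lower (more than with all samples without labelled Sirt1-deleted replicate 10 or 11), the regulatory median ran from -0.0030 to 0.034, and the Psmb9/Psmb6 ratio from 0.175 to 0.298. Uncalled differences near 0 changed sign: after upper-quartile rescaling Psma5 (0.058), Psmb2 (0.010), Psmd7 (0.049), Psmd8 (0.053), Psmd11 (0.056) and Nfe2l1 (0.0027); after quantile normalization Psma5 (0.037), Psmb2 (0.0047), Psmd7 (0.031), Psmd8 (0.028), Psmd11 (0.047) and Nfe2l1 (0.0024). With sample weights Psmd8 was 0.0062. The length and GC correction gave Psma1 -0.071, Psmc4 -0.016, Psmd10 -0.040 and Nfe2l1 0.038, and leaving out replicates 10 and 11 gave Psma1 -0.067 and Psmc4 -0.017. Without 1 sample, Psma1 ran from -0.0087 to 0.066, Psma5 from -0.046 to 0.049, Psmd7 from -0.059 to 0.029, Psmd8 from -0.019 to 0.0058 and Psmd11 from -0.050 to 0.026. Depth behind single values is unknown.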
